A study of Mus musculus with 6 samples.

Results

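The genes described here carry the insulin and growth factor signal from the cell surface to protein synthesis in cells of the embryonic mouse cortex. They are 41 genes of the insulin, PI3K (phosphoinositide 3-kinase) and mTOR (mechanistic target of rapamycin) pathway, taken by symbol from a list of names, out of 54146 genes in each count table. All 41 symbols matched a gene, and 40 had enough counts to be tested. Irs4 did not, with 3 reads in Mir replicate 3 and 0 in the other libraries.

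In this pathway the insulin receptor and the type 1 insulin-like growth factor receptor phosphorylate adaptor proteins of the IRS family, which dock PI3K at the membrane. The lipid made by PI3K recruits the kinase AKT, which inactivates the TSC complex so that the small GTPase RHEB can switch on mTOR complex 1, and which also keeps FOXO transcription factors out of the nucleus. mTOR complex 1 drives protein synthesis and restrains autophagy when amino acids are present, and in the developing cortex the pathway is known for its part in progenitor growth and in brain size.

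The libraries came from neocortical cells that had taken up plasmids by in utero electroporation at E14.5 (embryonic day) and were sorted for green fluorescent protein (GFP) at E15.5. Both groups received GFP under the CAG promoter together with a hairpin under the U6 promoter. The hairpin encoded the precursor of miR3607-5p in the Mir group and, in the Scr group, the negative control of the vector kit, a sequence not found in the mouse genome. Each group had 3 libraries, each from the cells of 2 pooled embryos, so the p-values measure the spread between pools. Mice are wild type, of ICR background in the protocol and C57BL/6 in the sample characteristics. U6 drives the hairpin in any cell that took up the plasmid, and the GFP gate does not select a cell type.

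Libraries held 12724511 to 16684038 counts in genes. Defining markers of progenitors were present in every library. The summed level of 8 radial glia markers was 1222 to 1821 CPM (counts scaled to the library total) in Scr and 1556 to 2311 in Mir, and that of 6 intermediate progenitor markers was 1433 to 2180 and 2192 to 3184. The mean was higher in Mir for all 8 and all 6 markers. Markers of cortical neurons summed to 5419 to 6832 CPM in Scr and 4510 to 5036 in Mir, with 7 of 9 lower in the mean. Summed levels of 9 endothelial markers were 90.8, 215 and 16.1 CPM in Scr replicates 1, 2 and 3 and 4.90, 4.66 and 41.3 CPM in Mir replicates 1, 2 and 3. All 9 had a lower mean in Mir, and 7 of them, Cldn5, Pecam1, Cdh5, Kdr, Flt1, Tek and Emcn, were at 0 in at least 1 library. Markers of inhibitory neurons summed to 292, 1147 and 398 CPM in Scr and to 156, 132 and 373 CPM in Mir, with all 9 lower in the mean. Erythroid markers summed to 242, 858 and 565 CPM in Scr and to 53.2, 1.60 and 575 CPM in Mir, with all 6 lower in the mean, and Hba-a1, Hba-a2 and Hbb-y were at 0 in at least 1 library. The part of cell makeup in the members' values was not tested. In such bulk samples fewer cells of a type and less RNA per cell cannot be told apart.

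Levels of the pathway genes were mostly close between the groups. The median log2 fold change (Mir over Scr) of the 40 tested members was 0.04, with 22 above and 18 below 0, beside -0.01 over all 16897 genes tested. The median size of the change, regardless of sign, was 0.15 for the members and 0.20 for all genes. All genes were not matched to the members for level, so these sizes do not show that the pathway was steadier. At an adjusted p under 0.05 (edgeR quasi-likelihood test with Benjamini-Hochberg adjustment over all genes tested), 0 members were called higher and 0 lower. Over all genes this rule called 0% higher and 0.00592% lower, a single gene. At an unadjusted p under 0.05, edgeR had 4 members higher (10%, beside 6.57% of all genes), namely Irs2, Pik3r2, Akt1s1 and Rps6kb2. It had 5 members lower (12.5%, beside 7.93% of all genes), namely Igf1r, Irs1, Pik3ca, Pik3r3 and Eif4ebp2.

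Separation of the libraries by group gave nearly the same names. The 3 Mir libraries lay above all 3 Scr libraries for 6 members (15%, beside 9.72% of all genes), the 4 named above with Tsc2 and Foxo4. They lay below for the same 5 members that had the lower unadjusted calls (12.5%, beside 10.3% of all genes). DESeq2 called 2 of 38 members higher (5.26%, beside 1.45% of the genes it gave an adjusted p), Irs2 and Akt1s1, and 1 lower (2.63%, beside 2.21%), Pik3r3. It gave no adjusted p for Deptor and Foxo4, and limma-voom called 0 higher and 0 lower. With no filter on low counts edgeR called 1 member, Irs2, and it again called Irs2 alone in a fit on the 4 libraries other than Scr replicate 2 and Mir replicate 3. These 2 libraries were left out because they had stood apart from the rest of their groups in earlier results. Without them the log2 fold change was 0.83 for Irs2, 0.79 for Akt1s1, -0.58 for Pik3r3 and -0.35 for Eif4ebp2, each of the same sign as with all libraries.

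**Figure D1:**
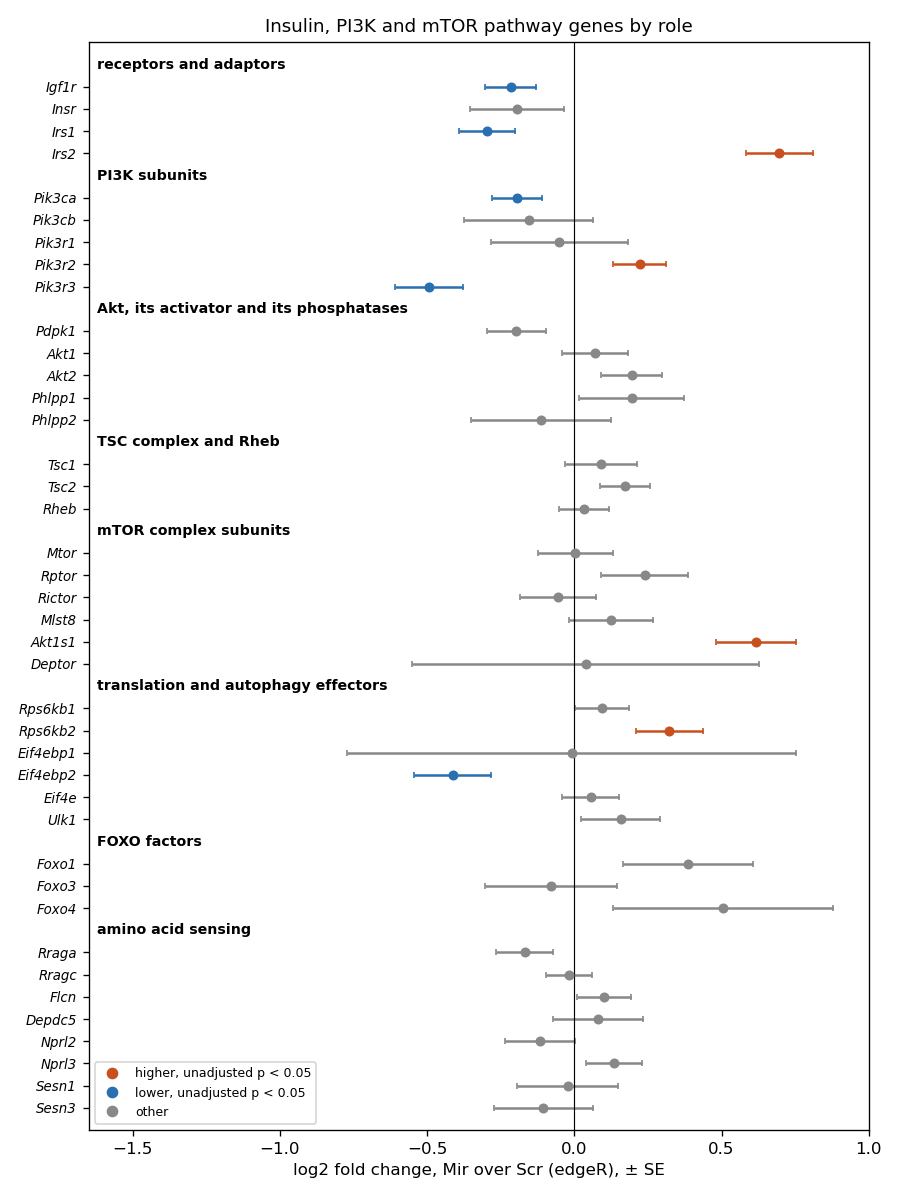
Log2 fold change, Mir over Scr, of the 40 tested members with its standard error (edgeR, 3 libraries per group), ordered by role from receptors to amino acid sensing. Irs2 (0.70) and Akt1s1 (0.62) lie farthest to the right, Pik3r3 (-0.49) and Eif4ebp2 (-0.41) farthest to the left, and Eif4ebp1 and Deptor have the widest errors.

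**Figure D2:**
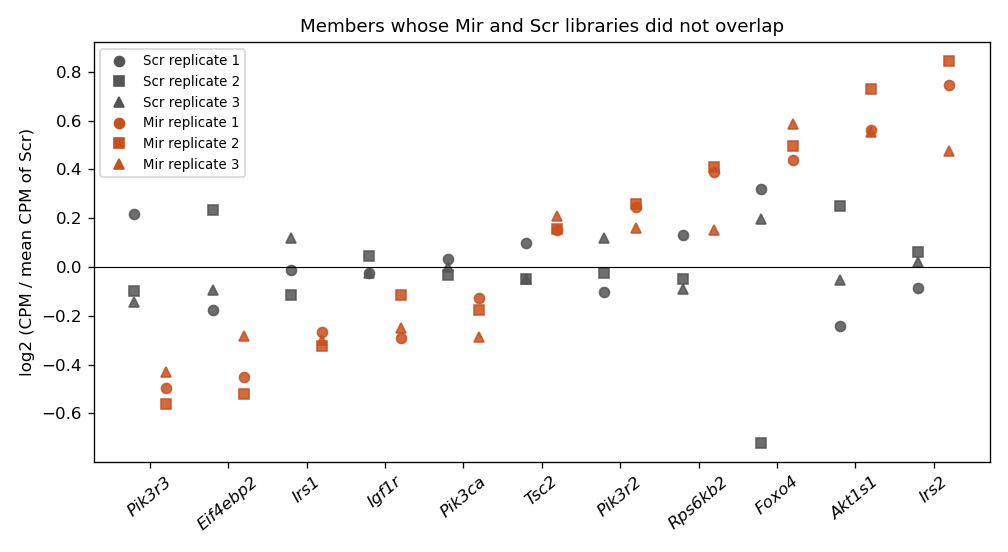
Levels of the 11 members without overlap between groups, in each library, as log2 of the CPM over the Scr mean; grey marks are Scr and orange marks Mir, with a shape for each replicate. For Irs2 and Akt1s1 the 3 Mir marks lie well above the Scr marks, whereas Scr replicate 2 of Foxo4 lies far below the other 5 libraries.

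A microRNA recognises mRNAs mainly through bases 2 to 8 of its mature strand, the seed, so the 3′ UTRs (untranslated regions) of the members were searched for matches. The labels give the hairpin as an oligonucleotide, from which the mature strand below was taken, with its seed in capitals. The last base is uncertain, because the oligonucleotide ends in a run of 7 T.
mature strand of the hairpin: gCATGTGAtgaagcaaatcagt
The searched matches were TCACATG (7mer-m8), CACATGA (7mer-A1) and, holding both, TCACATGA (8mer), on the sense strand, in 1 transcript per gene (that of longest coding sequence). Of the 40 tested members 14 held at least 1 match (35%), beside 2208 of 12719 tested genes with a 3′ UTR (17.4%). The UTRs of the members were also longer, with a median of 2842.5 nt against 1022 nt. With any annotated transcript the shares were 37.5% and 22.9%. A match is a description of the sequence and not a site shown to be bound.

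The members held 21 matches, 6 of them 8mers, 11 7mer-m8 and 4 7mer-A1. The 8mers, the longest match, lay in 5 members, and they are printed with 11 bases on each side from the GRCm38 transcripts, match in capitals, each inside the 3′ UTR of its gene.
Igf1r, chr7:68230668-68230697, plus strand: actgcttgaagTCACATGAaccactgaggc
Igf1r, chr7:68232784-68232813, plus strand: cttcacagtgaTCACATGActctgatgtgc
Insr, chr8:3152816-3152845, minus strand: accttcagaagTCACATGAaatcccccgga
Pik3ca, chr3:32464024-32464053, plus strand: agacagcacaaTCACATGAaacccgttact
Pik3r3, chr4:116300976-116301005, plus strand: tgaagggtccaTCACATGAcatgttattca
Rps6kb1, chr11:86500134-86500163, minus strand: catgtcaggtgTCACATGAgtgtcacagac
These 5 members had a median log2 fold change of -0.20, from -0.49 for Pik3r3 to 0.09 for Rps6kb1, with 4 below 0. Of them 3, Igf1r, Pik3ca and Pik3r3, had an unadjusted edgeR p under 0.05 on the lower side, and 0 on the higher side. The lower rule was met by 7.93% of all genes, with or without a match, and its share among all genes with an 8mer was not computed. Of the 6 fits without a library, the unadjusted p stayed under 0.05 in 1 for Igf1r, 0 for Pik3ca and 6 for Pik3r3. The 9 members with only 7mers had a median of 0.04, from -0.15 for Pik3cb to 0.70 for Irs2, with 1 on the higher side at that threshold and 0 on the lower. The 26 members with no match had a median of 0.08, from -0.41 for Eif4ebp2 to 0.62 for Akt1s1, with 3 on the higher side and 2 on the lower. Over all members with a match the median was -0.08 and over those without 0.08. Over all tested genes with a 3′ UTR these medians were -0.035 and 0.0021, a smaller gap. Median UTR lengths in these classes were 4747, 4165 and 1255 nt, and the part of UTR length in the differences was not tested. Transcript GC contents of the members with an 8mer were 49.4% (Igf1r), 46.8% (Insr), 41.2% (Pik3ca), 44.3% (Pik3r3) and 39.2% (Rps6kb1). Over the 40 tested members GC content ran from 39.2 to 61.8%. The part of GC content in these differences was not tested either. Irs2, the member with the highest fold change, holds a 7mer-m8, printed here because it lies in a gene whose Mir libraries lay above the Scr libraries.
Irs2, chr8:10986456-10986484, minus strand: ctgccccaggaTCACATGctgacctccgt

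**Figure D3:**
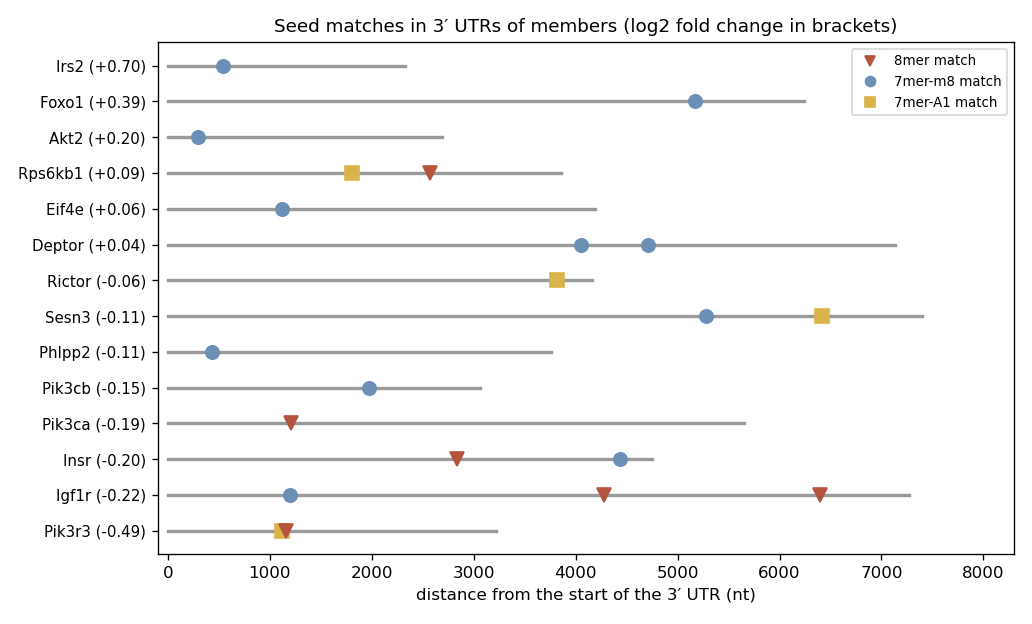
Positions of seed matches along the 3′ UTRs of the 14 members that hold one, as distance in nt from the start of the UTR (grey line, its length), ordered by log2 fold change (in brackets). The 8mers (red triangles) lie in the 4 members at the bottom, Pik3ca, Insr, Igf1r and Pik3r3, and in Rps6kb1.

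At the receptor level both receptors and the adaptor gene Irs1 had lower means in Mir, whereas the adaptor gene Irs2 had a higher one. Irs2 (ENSMUSG00000038894, chr8:10984681-11008458, minus strand) encodes an adaptor that couples the receptors to PI3K. It was at 84.1, 93.2 and 90.4 CPM in Scr replicates 1, 2 and 3 and at 149.8, 160.0 and 124 CPM in Mir replicates 1, 2 and 3. The lowest Mir library, replicate 3, was thus still above the highest Scr library, replicate 2. The log2 fold change was 0.70 ± 0.11 (SE), with an edgeR adjusted p of 0.167 and a DESeq2 adjusted p of 0.00011, and 0.00011 to 0.587 over the alternatives. The unadjusted p stayed under 0.05 in each of the 6 fits that left out a library. An opposite-strand gene overlaps 2.56% of its exon bases. Irs1 (ENSMUSG00000055980, chr1:82233101-82291416, minus strand), the adaptor first described for the insulin receptor, was at 62.9, 58.6 and 68.9 CPM in Scr and at 52.7, 50.7 and 51.6 CPM in Mir. All Mir libraries lay below the Scr libraries, and the log2 fold change was -0.30 ± 0.10 (edgeR adjusted p 0.257, 0.160 to 0.615 over the alternatives). The opposite-strand gene Gm9747 overlaps 30.9% of the exon bases of Irs1, so the counts of Irs1 are uncertain. Gm9747 itself was at -0.30 ± 0.10.

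The adaptors' makeup differed between groups. Per kb of exon, Irs2 held 67.03 ± 2.30% of the summed Irs level in Scr and 80.0 ± 2.27% in Mir (SD, n = 3), and the libraries did not overlap. The summed level per kb was 21.1 ± 0.827 CPM in Scr and 28.5 ± 2.90 in Mir (SD, n = 3), again without overlap. Igf1r (ENSMUSG00000005533, chr7:67952827-68233668, plus strand), the receptor for insulin-like growth factors, was at 110.5, 115.7 and 110.4 CPM in Scr and at 91.8, 103.7 and 94.3 CPM in Mir. The Mir libraries all lay below, by the smallest margin in replicate 2, and the log2 fold change was -0.22 ± 0.09 (edgeR adjusted p 0.317, 0.263 to 0.617 over the alternatives). The unadjusted p was under 0.05 in 1 of the 6 fits without a library. Insr, the insulin receptor gene, was at -0.20 ± 0.16, and at -0.05 without Mir replicate 3, the lowest library at 41.4 CPM.

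The promoters of the 3 Irs genes were looked at because Irs2 and Irs1 differed in opposite directions. RefSeq windows on GRCm38.p6, from 250 bases before to 50 after a start, matched 36 members with 46 windows, out of 32851 windows in all. Both strands were searched for GTAAACA (FOXO core), CAAAACA (insulin response element core), TGACGTCA (cAMP response element), CACGTGAC (the E-box of TFE factors), CTTTGAA (TCF/LEF) and GGGGCGGGG (GC box). The shares of all windows that hold them were 3.65%, 6.28%, 1.79%, 2.25%, 5.14% and 11.5%. Among the 36 members 2, 3, 1, 5, 0 and 15 held them in at least 1 window. These are counts of genes, some with several windows, so they cannot be set directly against the shares of windows. The insulin response core was in Irs1, Irs2 and Irs4, and the E-box in these and in Eif4e and Rheb. The Irs genes hold the E-box and the insulin response core side by side, starting within 9 bases of each other, which is the case in 3 of 32851 windows (0.00913%), all of them Irs genes. That search was chosen after these windows had been seen. The motifs are in capitals, on the strand of the gene, and in Irs1 they overlap by 2 bases.
Irs1, chr1:82291534-82291566, minus strand: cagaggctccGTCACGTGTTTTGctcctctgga
Irs2, chr8:11008950-11008985, minus strand: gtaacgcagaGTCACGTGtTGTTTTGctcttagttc
Irs4, chrX:141725348-141725383, minus strand: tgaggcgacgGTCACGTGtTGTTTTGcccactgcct
All 3 genes thus share the pair, while Irs2 had a higher mean in Mir, Irs1 a lower one and Irs4 almost no reads. The RefSeq start of Irs2 lies upstream of the gene's 5′ end in GENCODE M21.

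Among the PI3K subunits, the regulatory subunit genes Pik3r2 and Pik3r3 differed in opposite directions, while the summed levels of the regulatory subunits overlapped between groups. Pik3r3 (ENSMUSG00000028698, chr4:116221618-116303056, plus strand), which encodes the regulatory subunit p55 gamma, was at 130.6, 105.0 and 101.8 CPM in Scr and at 79.7, 76.1 and 83.5 CPM in Mir. Scr replicate 1 was the highest library and the groups did not overlap. The log2 fold change was -0.49 ± 0.12, with an edgeR adjusted p of 0.208 and a DESeq2 adjusted p of 0.0226 (0.0226 to 0.587 over the alternatives), and the unadjusted p was under 0.05 in 6 of 6 fits without a library. The same-strand gene Gm49337 shares 24.3% of the exon bases of Pik3r3, so the counts of Pik3r3 are uncertain. Gm49337 had 0 counts in all 6 libraries, which does not settle its level, because reads on shared exons may be given to neither gene. Pik3r2 (ENSMUSG00000031834, chr8:70768176-70776713, minus strand), which encodes the regulatory subunit p85 beta, was at 119.5, 125.8 and 139.1 CPM in Scr and at 151.9, 153.2 and 143.2 CPM in Mir. The gap between Scr replicate 3 and Mir replicate 3 was small, and the log2 fold change was 0.22 ± 0.09 (edgeR adjusted p 0.326, 0.306 to 0.656 over the alternatives). Of the 6 fits without a library, 1 had an unadjusted p under 0.05.

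Per kb, Pik3r3 held 36.8 ± 3.75% of the summed level of the Pik3r genes in Scr and 26.8 ± 2.23% in Mir (SD, n = 3), and Pik3r2 held 53.5 ± 5.50% and 63.6 ± 0.669%, neither with overlap. The sum itself was 57.5 ± 2.39 CPM per kb in Scr and 56.2 ± 2.05 in Mir (SD, n = 3), and its libraries overlapped. Pik3ca (ENSMUSG00000027665, chr3:32397671-32468486, plus strand), the catalytic subunit p110 alpha, was at 90.1, 86.0 and 88.1 CPM in Scr and at 80.6, 77.9 and 72.3 CPM in Mir. Every Mir library lay below every Scr library, with a log2 fold change of -0.19 ± 0.08 (edgeR adjusted p 0.344, 0.283 to 0.652 over the alternatives). None of the 6 fits without a library (0 of 6) kept its unadjusted p under 0.05. The catalytic subunit gene Pik3cb was at -0.15 ± 0.22 and Pik3r1, the p85 alpha gene, at -0.05 ± 0.23, both with overlapping libraries. Of the 50-base words of Pik3cb, 5.80% also occur in other genes, so its counts are uncertain to that extent.

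The Akt genes among the members were close between groups. Akt1 had the highest level per kb of the Akt group (68.4 CPM per kb in Scr and 71.8 in Mir). It was at 251, 306 and 284 CPM in Scr and at 275, 277 and 331 CPM in Mir, with overlap and a log2 fold change of 0.07 ± 0.11. Akt2 was at 0.20 ± 0.10, and 16.0% of the 50-base words of its transcripts also occur in the pseudogene Akt2-ps, so that its counts are uncertain. Pdpk1, the kinase that activates AKT, was at -0.20 ± 0.10. The AKT phosphatase genes Phlpp1 and Phlpp2 were at 0.19 ± 0.18 and -0.11 ± 0.24.

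**Figure D4:**
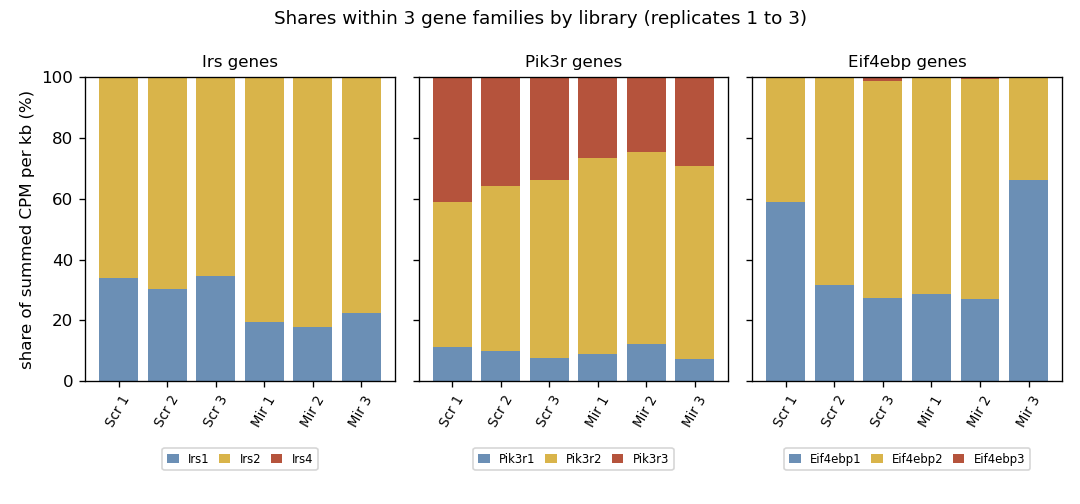
Share of each gene in the summed CPM per kb of exon of its family, by library, for the genes of the Irs, Pik3r and Eif4ebp families. Irs1 (32.97% in Scr, 19.96% in Mir) and Pik3r3 (36.8% and 26.8%) take smaller shares in all 3 Mir libraries, and in the Eif4ebp genes Scr replicate 1 and Mir replicate 3 stand apart from the other 4 libraries.

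The TSC complex and Rheb, the switch that it controls, had small differences. Rheb, with the highest level per kb of the group (28.4 CPM per kb in Scr and 29.1 in Mir), was at 201, 223 and 234 CPM in Scr and at 221, 229 and 223 CPM in Mir. The Mir libraries lay inside the Scr range and the log2 fold change was 0.03 ± 0.09. Tsc2 (ENSMUSG00000002496, chr17:24595816-24632630, minus strand) encodes tuberin, the subunit that turns RHEB off. It was at 75.6, 68.3 and 68.3 CPM in Scr and at 78.7, 78.8 and 81.8 CPM in Mir, so that Scr replicate 1 lay just below the Mir libraries. The log2 fold change was 0.17 ± 0.09 (edgeR adjusted p 0.398, 0.363 to 0.669 over the alternatives). The opposite-strand gene Pkd1 overlaps 7.20% of the exon bases of Tsc2, which leaves its small difference uncertain. Tsc1, its partner hamartin, was at 0.09 ± 0.12.

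The libraries of the 2 groups overlapped for 5 of the 6 mTOR complex genes, and Akt1s1 was the exception. Akt1s1 (ENSMUSG00000011096, chr7:44848991-44855421, plus strand) encodes PRAS40, an inhibitory subunit of mTOR complex 1 that AKT phosphorylates. It was at 65.4, 91.8 and 74.4 CPM in Scr and at 114, 127.9 and 113.2 CPM in Mir, with Scr replicate 2 and Mir replicate 2 the highest of their groups. The groups did not overlap, and the log2 fold change was 0.62 ± 0.13, with an edgeR adjusted p of 0.198 and a DESeq2 adjusted p of 0.00634 (0.00634 to 0.587 over the alternatives). Its unadjusted p was under 0.05 in 6 of 6 fits without a library. The opposite-strand gene Tbc1d17 overlaps Akt1s1 and was itself at 0.39 ± 0.12. Overlapping genes, Tbc1d17 among them, share 5.27% of the exon bases of Akt1s1. Of the other subunits, the kinase Mtor was at 0.00 ± 0.13, Rptor (the scaffold of complex 1) at 0.24 ± 0.15 and Rictor (that of complex 2) at -0.06 ± 0.13. Mlst8, common to both complexes, was at 0.12 ± 0.14, with 22.5% of its exon bases overlapped by Bricd5. Deptor, an inhibitor of both, was at 0.04 ± 0.59 from levels of 0.467 to 1.87 CPM, too low to show a moderate difference.

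Among the effectors, the second S6 kinase gene had a higher mean in Mir and a 4E-BP gene a lower one. Rps6kb2 (ENSMUSG00000024830, chr19:4153991-4163354, minus strand), which encodes S6 kinase 2, was at 51.1, 45.2 and 43.9 CPM in Scr and at 61.2, 62.1 and 52.0 CPM in Mir. Mir replicate 3 lay only just above Scr replicate 1. The log2 fold change was 0.32 ± 0.11 (edgeR adjusted p 0.282, 0.167 to 0.624 over the alternatives), the unadjusted p was under 0.05 in 2 of 6 fits without a library, and 23.7% of its exon bases are overlapped by Coro1b and Ptprcap on the other strand. Rps6kb1, the gene of the better known S6 kinase 1, was at 0.09 ± 0.09. Eif4ebp2 (ENSMUSG00000020091, chr10:61428491-61452661, minus strand), the 4E-BP known as the main form in brain, encodes a repressor of cap-dependent translation. It was at 81.2, 107.9 and 85.9 CPM in Scr and at 67.2, 63.9 and 75.3 CPM in Mir. The groups did not overlap, Scr replicate 2 was the highest, and the log2 fold change was -0.41 ± 0.13 (edgeR adjusted p 0.252, 0.115 to 0.613 over the alternatives). The unadjusted p was under 0.05 in 5 of 6 fits without a library.

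Eif4ebp1 (chr8:27260329-27276674, plus strand), the related repressor gene, varied more within groups than any other well-covered member. It was at 44.8, 19.2 and 12.5 CPM in Scr and at 10.2, 9.01 and 56.7 CPM in Mir, so Scr replicate 1 and Mir replicate 3 were the high libraries. The log2 fold change was -0.01 ± 0.76, ranged from -1.42 to 0.69 when a single library was left out, and was -1.57 without Scr replicate 2 and Mir replicate 3. Its share of the summed Eif4ebp level per kb was 59.1, 31.8 and 27.3% in Scr and 28.5, 26.9 and 66.3% in Mir. The cap-binding factor gene Eif4e and the autophagy kinase gene Ulk1 had the highest levels per kb among the effectors, 21.0 CPM per kb each in Scr and 21.9 and 23.4 in Mir. Eif4e was at 124, 118 and 138 CPM in Scr and at 124, 130.0 and 141 CPM in Mir, an overlap with a log2 fold change of 0.06 ± 0.10, and 7.16% of its 50-base words also occur in other genes. Ulk1 was at 0.16 ± 0.13.

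The FOXO factors, which AKT keeps out of the nucleus, were measured at low levels among the members. Foxo1, the most abundant of the 3 per kb (2.02 CPM per kb in Scr and 2.63 in Mir), was at 17.2, 22.3 and 12.9 CPM in Scr and at 22.3, 26.1 and 19.9 CPM in Mir. The groups overlapped through Scr replicate 2, and the log2 fold change was 0.39 ± 0.22 (edgeR adjusted p 0.463, 0.148 to 0.760 over the alternatives). An opposite-strand gene overlaps 7.78% of the exon bases of Foxo1. Foxo4 (ENSMUSG00000042903, chrX:101254528-101260873, plus strand) was at 1.64, 0.796 and 1.51 CPM in Scr and at 1.78, 1.85 and 1.97 CPM in Mir. All Mir libraries lay above all Scr libraries, with Scr replicate 2 the lowest. The log2 fold change was 0.50 ± 0.37 (edgeR adjusted p 0.568, 0.503 to 0.839 over the alternatives). It was at least 0.247 in each fit without a single library. Foxo3 was at -0.08 ± 0.22. Foxo6, which is not a member, held 90.9 ± 1.32% of the summed Foxo level per kb in Scr and 92.5 ± 1.63% in Mir (SD, n = 3).

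Known target genes of FOXO factors were tested next to them. Of 20 targets (Trim63 was too low to test) edgeR called 0 of 19 after adjustment, and 0 also had an unadjusted p under 0.05, beside 6.57% of all genes higher and 7.93% lower. DESeq2 called 0 of 18, beside 1.45% higher and 2.21% lower. The median log2 fold change was -0.07, with 8 above and 11 below 0, beside -0.01 over all genes.

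Amino acid sensing genes, which set whether mTOR complex 1 reaches the lysosome, had a median log2 fold change of -0.02, with 3 above and 5 below 0. Rraga, a Rag GTPase gene with the highest level per kb of the group (67.1 CPM per kb in Scr and 59.7 in Mir), was at 107, 102 and 117 CPM in Scr and at 96.9, 89.4 and 103.5 CPM in Mir. Mir replicate 3 lay inside the Scr range, and the log2 fold change was -0.17 ± 0.10. Its partner Rragc, with 7.90% of its exon bases overlapped by an opposite-strand gene, was at -0.02 ± 0.08, and Flcn, the activator of RAGC, at 0.10 ± 0.09. The GATOR1 subunit genes Depdc5, Nprl2 and Nprl3, which switch the Rag GTPases off, were at 0.08 ± 0.15, -0.12 ± 0.12 and 0.14 ± 0.09. The opposite-strand gene Mpg overlaps 17.7% of the exon bases of Nprl3. The sestrin genes Sesn1 and Sesn3, of a family of stress-responsive proteins, were at -0.02 ± 0.17 and -0.11 ± 0.17. No member of this group (0 of 8) had an unadjusted p under 0.05.

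The other genes of the pathway, 82 listed by role with 77 tested, had 0 calls by edgeR after adjustment. Without adjustment 4 were higher (5.19%, beside 6.57% of all genes) and 6 lower (7.79%, beside 7.93%) at a p under 0.05. DESeq2 called 0 higher (beside 1.45%) and 2 lower (2.67%, beside 2.21%), among them Prkaa2. These shares were near or below those over all genes. Their median log2 fold change was 0.03, with 44 above and 33 below 0. The higher genes were Gsk3a, a kinase inhibited by AKT (0.31 ± 0.09), Mapkap1, a subunit of mTOR complex 2 (0.58 ± 0.19), Stk11, the kinase LKB1 that activates AMPK (0.63 ± 0.22), and Foxo6 (0.51 ± 0.17). Among the lower genes were Prkaa2, a catalytic subunit of AMPK (-0.68 ± 0.18, DESeq2 adjusted p 0.0414 within 0.0414 to 0.591 over the alternatives), and Fnip1, the partner of folliculin (-0.29 ± 0.12). Mapkap1 was at 68.0, 117.7 and 76.2 CPM in Scr and at 133.6, 127.7 and 129.7 CPM in Mir, so that Scr replicate 2 lay near the Mir libraries.

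Igfbp3 and Pik3cg were also on the lower side, and levels of markers of other cell types are given beside them. Igfbp3, a secreted binding protein of insulin-like growth factors, was at 14.7, 43.8 and 23.8 CPM in Scr and at 2.73, 2.68 and 15.0 CPM in Mir, a log2 fold change of -2.02 ± 0.72. Its lowest libraries, Mir replicates 1 and 2, were also the lowest for the endothelial markers and for those of inhibitory neurons. Scr replicate 3, its second highest library, had the lowest endothelial level of the Scr libraries. For the inhibitory neuron markers Scr replicate 3 was also the second highest library, at 398 CPM, after Scr replicate 2 at 1147 CPM. Pericyte markers summed to 47.4, 89.2 and 19.0 CPM in Scr and to 3.63, 2.87 and 23.8 CPM in Mir. All 5 pericyte markers had a lower mean in Mir, and 3 of them, Rgs5, Kcnj8 and Abcc9, were at 0 in at least 1 library. Pik3cg, the catalytic subunit known from leukocytes, was at 0.857, 2.39 and 0.723 CPM in Scr, 56 counts in all, and had 0 counts in Mir, at least 19.9-fold lower against a floor of 3 counts over the group. Microglia markers summed to 18.2, 47.6 and 64.1 CPM in Scr and to 10.1, 12.4 and 44.6 CPM in Mir. All 8 had a lower mean in Mir, and 6 of them, Cx3cr1, P2ry12, C1qb, Aif1, Tyrobp and Fcer1g, were at 0 in at least 1 library. In Mir replicate 3 the sum of these markers lay above that in Scr replicate 1, while Pik3cg had 0 counts. Of these markers P2ry12 went the other way, at 1.79 CPM in Scr replicate 1 and 0.339 CPM in Mir replicate 3. It was at 0 in Mir replicates 1 and 2. The part of these cells in the values of Igfbp3 and Pik3cg was not tested.

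The direction of the members' differences went along with the base composition of their transcripts. The 4 members higher at an unadjusted p under 0.05 had GC contents of 55.6 to 61.8% and lengths of 1812 to 6323 nt, whereas the 5 lower ones had 41.2 to 52.4% and 5257 to 11409 nt, with no overlap in GC content. Over the 40 members Spearman's rho of log2 fold change with GC content was 0.63, and over 12982 tested coding genes it was 0.13. These are descriptions over genes that share the same 6 libraries. Among all coding genes the median log2 fold change went from -0.08 in the lowest of 10 bins of GC content to 0.05 in the highest. The deviation of a library from the mean of the 6 had a rho with GC content of -0.22, 0.06 and -0.16 in Scr replicates 1, 2 and 3 and of -0.02, 0.10 and 0.17 in Mir replicates 1, 2 and 3. Less the median of their GC bin, Irs2 was at 0.65, Akt1s1 at 0.57, Pik3r3 at -0.45 and Eif4ebp2 at -0.43. Pik3ca, in the lowest bin, went from -0.19 to -0.11.

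**Figure D5:**
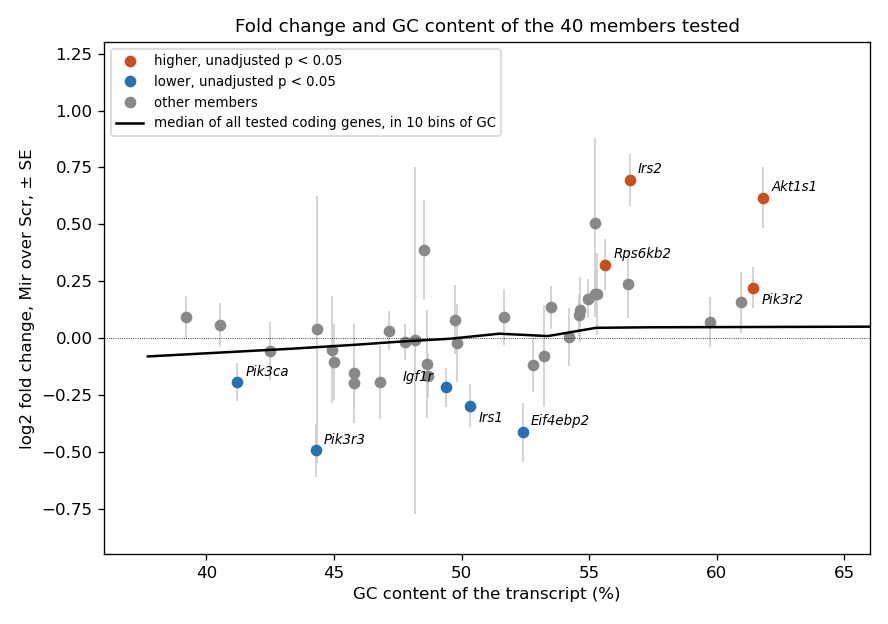
Log2 fold change ± SE of the 40 tested members against the GC content of the transcript, with members at an unadjusted p under 0.05 coloured, and the median of all tested coding genes in 10 bins of GC content as a black line (-0.08 to 0.05). Of the coloured members, the higher ones lie at 55.6% GC and above and the lower ones at 52.4% and below.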

How the data were processed

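The values were whole-number read counts per gene in 6 libraries, as the authors deposited them, with no scaling. The submitters' processing notes name the build mm10 (GRCm38), DESeq2 1.18.1, HTSeq 0.11.0 and HISAT2 2.1.0. For the strand setting and the annotation, the sources used here give nothing. Per the labels' protocols, RNA of integrity number above 9.5 was made into SMART-seq v4 libraries and read as 50 bp single reads. The 5 summary lines of each table, which name no gene, held 76.4 to 78.1% of the listed reads and stayed out of library sizes and tests. The reads carry no molecular identifiers, so they are not independent molecules.

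Counts were tested over the whole table with edgeR 4.0.16 in R 4.3.3 (quasi-likelihood F test, two-sided, group as the sole term, TMM normalization with factors of 0.992 to 1.01). The filterByExpr filter left 16897 genes, with Benjamini-Hochberg adjustment over them and a threshold of 0.05. The biological coefficient of variation was 23.6%. DESeq2 1.42.0 and limma-voom (limma 3.58.1), no filter on low counts, a minimum of 50 counts in 3 libraries, other size factors, a replicate block, each library left out, and subtraction of the median of all coding genes in the same of 10 bins of GC content (added after seeing the data) were alternatives. The fits were tested on simulated data with planted changes larger than those of the members. That test does not show how well differences of the members' size are found. Levels are CPM, per kb of exon where genes are compared. Every member is named. Values in all libraries are given for members with an unadjusted p under 0.05, without overlap, or with the highest level per kb of their role, and other pathway genes are named at an unadjusted p under 0.05. Some of the latter are not reported here. Gene positions, exons and UTRs come from GENCODE M21, promoters from RefSeq (GRCm38.p6). Where a tested member shares more than 5% of its exon bases or 50-base words with other genes, the share is given beside it, and its counts are uncertain to that extent. The members and the lists were chosen with earlier results of these data known.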

Additional observations from a re-analysis of the deposited data

How the results depend on the processing

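The count of members called by edgeR was 0 higher and 0 lower in each fit without a single library, with other size factors and with the minimum of 50 counts. DESeq2 called 2 higher and 1 lower, and 1 was called higher both with no filter on low counts and without the pair Scr replicate 2 and Mir replicate 3. For the other pathway genes the corresponding counts were 2, 1 and 2. Deviations of same-numbered libraries correlated at 0.22, -0.15 and -0.10. These values gave no clear sign that shared numbers pair the libraries, but they cannot exclude it. With a replicate block edgeR called 0 members and the median was 0.05. Of 558 member log2 fold changes under the alternatives, 46 had the other sign, in 16 members. The 11 members at an unadjusted p under 0.05 or without overlap had 0 such values.

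The 16 members all had overlapping groups, and the cause of the turns was not tested. Across fits without a single library, the log2 fold change ranged from -0.32 to 0.037 for Pik3cb, -0.29 to 0.12 for Pik3r1, -0.038 to 0.14 for Akt1, -0.35 to 0.021 for Phlpp2 and -0.030 to 0.092 for Rheb. The ranges were -0.051 to 0.10 for Mtor, -0.13 to 0.045 for Rictor, -0.0029 to 0.18 for Mlst8, -0.29 to 0.95 for Deptor, -1.42 to 0.69 for Eif4ebp1 and -0.011 to 0.13 for Eif4e. They were -0.27 to 0.084 for Foxo3, -0.045 to 0.013 for Rragc, -0.030 to 0.22 for Depdc5, -0.12 to 0.20 for Sesn1 and -0.20 to 0.016 for Sesn3. Without both Scr replicate 2 and Mir replicate 3, the values with the other sign were 0.11 for Pik3r1, 0.035 for Phlpp2, -0.052 for Mtor, 0.12 for Rictor, -0.059 for Deptor, -0.046 for Eif4e, 0.030 for Foxo3, 0.0012 for Rragc and -0.021 for Depdc5. Mtor was at -0.0014 with limma-voom, -0.0086 with the minimum of 50 counts, -0.0027 with the replicate block and -0.0059 after subtraction of the GC bin's median. Eif4ebp1 was at 0.0055 with no filter and 0.0059 after that subtraction, and Sesn1 at 0.0070 with limma-voom and 0.00043 with the replicate block. Depth limits Deptor and Foxo4, with fewer than 2 CPM in each library.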
